A study of Mus musculus with 50 samples.

Results

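The libraries described here are 6 of the 50 samples of a mouse series on ageing kidney and liver. They are the RNA-seq libraries of skin fibroblasts from C57BL/6 mice marked P9, chosen by their labels, with 3 libraries from cells given DMSO, the solvent control, and 3 from cells given 3C. The labels do not say what P9 stands for, and neither what 3C is nor its dose and duration is given in the sources used here. For comparison, DMSO and 3C libraries of kidney and of liver from old C57BL/6 mice (20 to 21 months), 4 per group, are used further below. Fibroblasts are the matrix-producing cells of connective tissue. Nothing states that the 3 libraries of a group came from separate cultures, so p-values measure the spread between these libraries, which may be technical.

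As background, fibroblasts make collagen, elastic fibres and proteoglycans, and they also act as sentinels that release chemokines and answer interferon. Type I interferon binds its receptor, the receptor kinases phosphorylate Stat proteins, and these join Irf9 in a complex that binds the interferon-stimulated response element in the promoters of antiviral genes. Inflammatory chemokines of the Cxcl family are instead driven largely by NF-kB, and they draw neutrophils through the receptor Cxcr2. Fibroblasts under tension or TGF-beta become myofibroblasts, which carry contractile actin and calponin.

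Each library held between 15578813 and 23943000 counts over genes. The first principal component, which held 43.3% of the variance of the log levels, separated the 3C from the DMSO libraries. The second, with 21.6%, set DMSO replicate 1 and 3C replicate 3 apart from the other libraries. The summed level of 17 fibroblast markers lay between 29424 and 36215 CPM (counts scaled by library size) in all 6 libraries, and none of the 17 was called. Keratinocyte markers summed to between 7.43 and 12.4 CPM, with 1 count of Krt14 and 7 counts of Krt5 over the 6 libraries, so the labelled cell type and its markers did not conflict. Leukocyte markers, led by Lyz2, were not at 0 and are given below beside the genes they moved with.

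Of 13449 genes tested, 166 were higher and 85 lower in the 3C libraries, which is 1.23% and 0.632% of the genes tested. A gene was called where its edgeR adjusted p was under 0.05 and its fold change passed 2 in either direction. On the adjusted p alone, 327 genes (2.43%) were higher and 240 (1.78%) lower. The median log2 fold change of all tested genes was 0.01. In all 251 called genes the 3 libraries of one group lay wholly above or below the 3 of the other, and over all tested genes every 3C library lay above every DMSO library in 13.0% and below in 12.5%. Past a fold of 4 there were 36 higher and 20 lower genes. Without DMSO replicate 3 the counts fell to 78 higher and 40 lower, without 3C replicate 2 to 111 and 50, and without DMSO replicate 1 and 3C replicate 3 together to 110 and 57. No called gene changed its direction under any of the 12 alternatives tried, and 65 of the higher and 29 of the lower genes were called in every one.

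**Figure D1:**
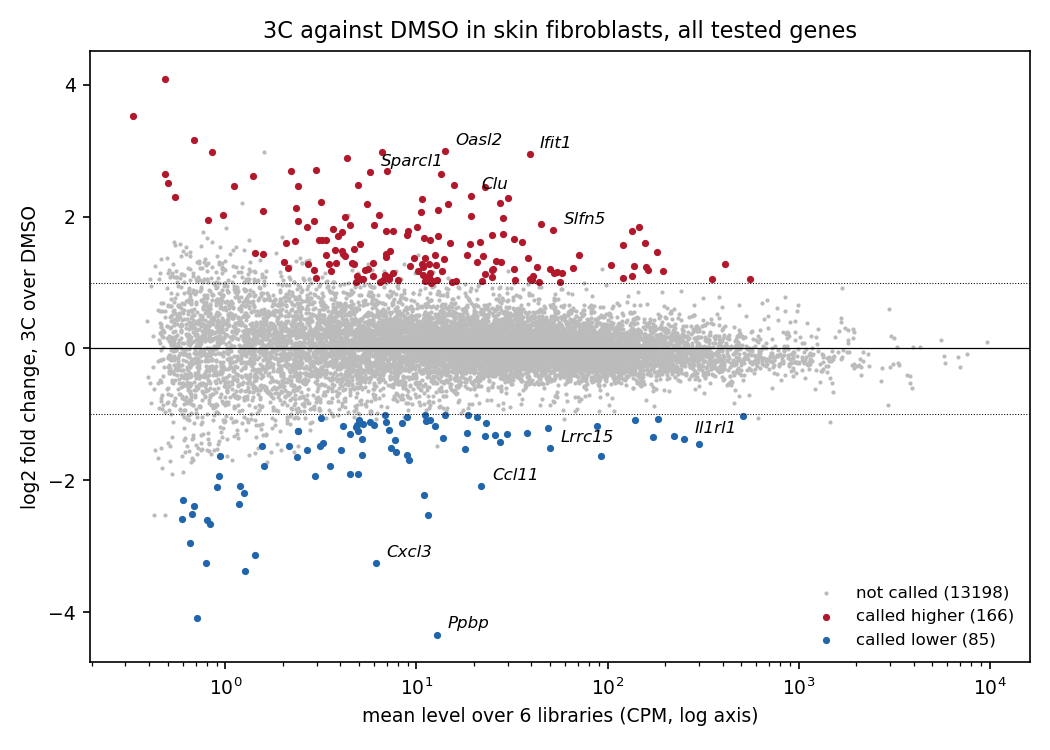
Log2 fold change of 3C over DMSO (vertical axis) against the mean level over the 6 libraries in CPM (horizontal log axis) for the 13449 tested genes, with 166 called higher in red, 85 called lower in blue and dotted lines at folds of 2. Ppbp stands lowest at a log2 change of -4.34, and Oasl2, Ifit1, Sparcl1 and Clu are among the labelled genes on the higher side.

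The largest group that rose was made of interferon-induced genes. Of 47 list members tested, 31 were called higher and 0 lower, against 1.23% and 0.632% of all genes, 46 had a log2 fold change above 0, and the list's median was 1.57 against 0.01 for all tested genes. The values of every 3C library exceeded those of every DMSO library in 40 of the 47, against 13.0% of all genes tested. The members' summed level was 908 to 1073 CPM in the DMSO and 1639 to 2852 CPM in the 3C libraries. Called members numbered 26 without 3C replicate 3, the library in which many were highest, and 16 without DMSO replicate 3, with list medians of 1.30 and 1.46.

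Antiviral effectors carried the largest changes of the list. Iigp1, a GTPase of the immunity-related family that attacks the vacuoles of intracellular parasites, was at 1.41, 1.38 and 1.64 CPM in the DMSO libraries and at 12.8, 6.88 and 15.3 CPM in the 3C libraries. Ifit1, which binds viral RNA and blocks its translation, was at 12.1, 5.36 and 9.33 CPM with DMSO and at 60.9, 35.5 and 111 CPM with 3C. Oasl2, a member of the oligoadenylate synthetase family of RNA sensors, was at 4.46, 2.60 and 2.21 CPM with DMSO and at 14.1, 20.1 and 41.1 CPM with 3C. In each of these 3 genes the lowest 3C library was more than the highest DMSO library, but the 3C libraries were spread widely and replicate 3 stood highest. The log2 fold changes were 2.98 ± 0.31 (SE) for Iigp1 (edgeR adjusted p = 0.000832), 2.96 ± 0.40 for Ifit1 (edgeR adjusted p = 0.00289) and 3.00 ± 0.39 for Oasl2 (edgeR adjusted p = 0.00253). Mx2, a dynamin-like antiviral GTPase, followed with 2.89 ± 0.46 (edgeR adjusted p = 0.00785), and there 3C replicate 1 was highest at 12.2 CPM against 3.78 and 7.13 CPM. Gbp3, a guanylate-binding protein, rose from 3.31, 4.40 and 3.22 CPM to 15.45, 18.95 and 34.99 CPM, a log2 fold change of 2.65 ± 0.30 (edgeR adjusted p = 0.00127). Isg15, a ubiquitin-like protein joined to other proteins, was at 13.1, 9.38 and 7.88 CPM with DMSO and at 25.9, 36.9 and 86.8 CPM with 3C, and it was not called without DMSO replicate 3. Ifi44, at 0.252 to 1.13 CPM with DMSO and 2.81 to 9.53 CPM with 3C, changed by 2.72 ± 0.55 and was also not called without that library. Isg15, like Irf7, Stat2, Rsad2 and Oasl1, was named after its values were seen.

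The transcription factors that carry the interferon signal rose as well. Stat2 was at 63.8, 74.8 and 42.6 CPM with DMSO and at 182, 162 and 196 CPM with 3C. Irf9, its partner in the complex that binds DNA, was at 28.2, 30.8 and 28.1 CPM with DMSO and at 58.3, 52.9 and 64.9 CPM with 3C. Irf7, which amplifies interferon output, was at 11.5, 10.2 and 7.50 CPM with DMSO and at 30.1, 37.0 and 68.4 CPM with 3C. The groups did not overlap in any of the 3, and the 3C values of Stat2 and Irf9 were close together while those of Irf7 were not. The log2 fold changes were 1.57 ± 0.19 for Stat2, 1.01 ± 0.12 for Irf9 and 2.204 ± 0.29 for Irf7, with edgeR adjusted p of 0.0015, 0.00146 and 0.00239. Irf9 was close to the fold of 2 that a call needs, and its call was lost in 4 of the 12 alternatives.

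Some interferon-induced genes were not called. Ifit2, Ly6e, Ifi47 and Isg20 had overlapping groups, and their log2 fold changes were 0.34, 0.25, 0.18 and -0.28. Ly6e was the most abundant of these, at 265 to 362 CPM with DMSO and 302 to 483 CPM with 3C. Rsad2 and Oasl1, antiviral genes at low level, had fold changes of 2.98 and 2.201 on the log2 scale, and 3C replicate 1 alone was at 5.73 and 3.71 CPM while no other library passed 1.46 CPM. They missed the threshold, with edgeR adjusted p of 0.0507 and 0.0564. Ifit2 and Ly6e and the other members of this paragraph were named after their values were seen.

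No library held a single count of any interferon looked for: Ifnb1, Ifna1, Ifna2, Ifna4, Ifna5, Ifng, Ifnk, Ifnl2 and Ifnl3 were at 0 counts in all 6 libraries. A count of 0 allows up to 3 counts, so these transcripts were not detectable at this depth rather than shown to be absent. The receptor genes Ifnar1 and Ifnar2 were at 62.9 to 72.0 CPM and 51.9 to 63.1 CPM over the 6 libraries, and their log2 fold changes were 0.04 ± 0.11 and 0.04 ± 0.12. Tyk2, a kinase of the receptor, was at 24.1, 33.1 and 19.9 CPM with DMSO and 41.0, 45.8 and 30.1 CPM with 3C, and its groups overlapped, with a log2 fold change of 0.60 ± 0.20 (edgeR adjusted p = 0.124). Tlr3, a sensor of double-stranded RNA, had a log2 fold change of 0.63 ± 0.20 with groups that did not overlap (edgeR adjusted p = 0.109). Jak1, the other kinase of the receptor, had a log2 fold change of -0.04 ± 0.17. By edgeR 0 of the 13 tested members of the list were called, against 1.23% higher and 0.632% lower of all genes. Tyk2 and Tlr3 were the 2 at an unadjusted edgeR p under 0.05, against 2714 of the 13449 genes tested. At these shares a list of 13 genes is too small for such counts to set it apart from all genes. This list of ligands, receptors and sensors was chosen after the values were seen.

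**Figure D2:**
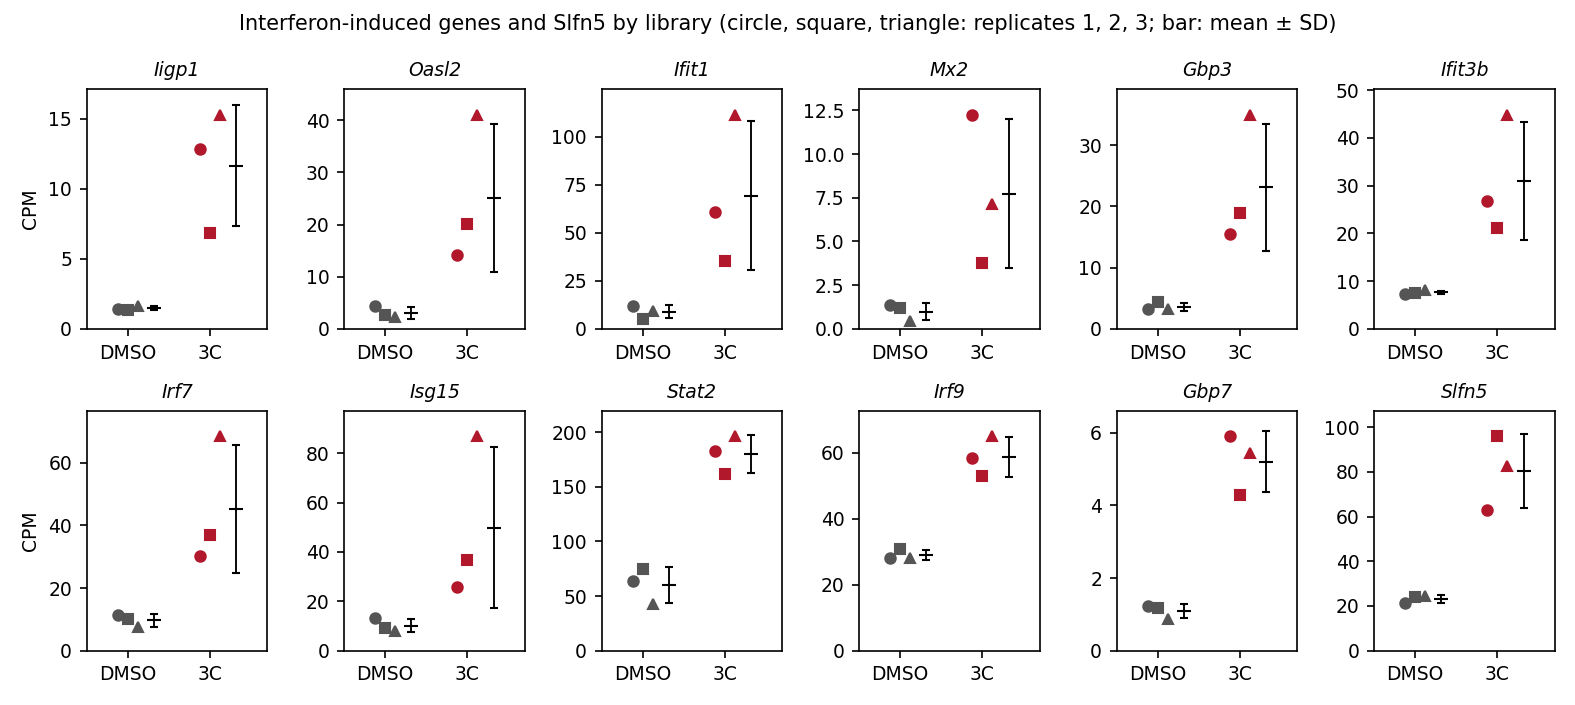
Level in CPM (vertical axes from 0) of 11 interferon-induced genes and Slfn5 in each library, with circles, squares and triangles for replicates 1, 2 and 3 and bars for the mean ± SD of 3 libraries. The 3C libraries lie above the DMSO libraries in every panel, and 3C replicate 3 is the highest in 9 of the 12, the exceptions being Mx2, Gbp7 and Slfn5.

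Promoter sequence was examined because the genes that moved together share a known response element. A promoter here is the stretch from 250 bases before to 50 bases after the start of a gene in RefSeq on build GRCm38.p6, and 33 of the 47 interferon-induced genes tested had one in the table. The core of the element is GAAA, any 2 bases and GAAA again, and it was sought on both strands. It occurred in 1131 of all 32851 promoters (3.44%) and in 378 of the 10525 tested genes with a promoter (3.59%). Among called genes with a promoter, 27 of the 105 higher (25.7%) and 8 of the 68 lower (11.8%) held it. It occurred in 20 of the 33 interferon-induced genes (60.6%). Outside that list, 13 of 85 called higher genes held it (15.3%). The longer form, in which CT follows the core, occurred in 89 of all promoters (0.271%) and in 36 of the 10525 tested genes (0.342%). It was in 13 of the 105 higher and in 0 of the 68 lower genes. The matches are descriptions of letters and not of binding, and the list was chosen for a family known to carry the element.

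The windows below, of 60 bases each, are from the 7 genes of smallest p among the called members of the list that hold the long form, read 5′ to 3′ on the strand of the gene. All lie on build GRCm38.p6, and the capitals mark the element, which in each case lies on the opposite strand and so reads as AG, TTTC, any 2 bases and TTTC. Gbp3 is at chr3:142559973-142560032 on the plus strand, with 2 overlapping matches, the first 47 bases before the gene start. Ifit1 is at chr19:34640759-34640818, plus strand, with 2 matches, the first 106 bases before the start. Ifit3 and Ifit3b, at chr19:34583347-34583406 and chr19:34607743-34607802, both on the plus strand, are identical over all 60 bases. Gbp7 is at chr3:142530257-142530316, plus strand, 55 bases before the start, Gbp2 is at chr3:142620578-142620637, plus strand, 61 bases before the start, and Trim30a is at chr7:104465196-104465255, minus strand, 38 bases before the start.
Gbp3: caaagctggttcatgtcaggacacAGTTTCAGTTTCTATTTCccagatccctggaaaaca
Gbp7: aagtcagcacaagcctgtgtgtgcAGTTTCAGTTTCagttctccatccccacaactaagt
Ifit1: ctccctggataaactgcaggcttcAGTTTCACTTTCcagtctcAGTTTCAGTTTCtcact
Ifit3: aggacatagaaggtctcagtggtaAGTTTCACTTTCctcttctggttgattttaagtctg
Ifit3b: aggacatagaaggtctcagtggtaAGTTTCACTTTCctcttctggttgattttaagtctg
Gbp2: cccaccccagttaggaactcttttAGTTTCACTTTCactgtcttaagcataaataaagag
Trim30a: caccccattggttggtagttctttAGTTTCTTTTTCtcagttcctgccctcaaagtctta

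Ifit3 and Ifit3b, whose printed promoters do not differ, are near-identical copies, and reads shared between them may have been assigned to either or to neither. Ifit3b was at 7.37, 7.50 and 8.07 CPM with DMSO and at 26.7, 21.2 and 44.8 CPM with 3C. Ifit3 was at 103, 62.9 and 77.6 CPM with DMSO and at 159, 150 and 270 CPM with 3C. Both were called higher, by 2.01 ± 0.25 and 1.25 ± 0.24 on the log2 scale. Trim30a, a regulator of inflammatory signalling, and Gbp2 rose by 1.78 ± 0.25 and 1.04 ± 0.23, and the call of Gbp2 was lost in 6 of the 12 alternatives. Gbp7 went from between 0.883 and 1.24 CPM to between 4.28 and 5.90 CPM. These genes were named for their promoters after their values were seen. The Gbp, Oas, Ifi200 and Irgm families hold similar paralogs with the same limit, and the exons of Irf7, Slfn5, Bmp4, Nid2, C2, Cxcl10 and Pla2g7 overlap a counted gene on the opposite strand whose reads cannot be told apart. Irf9, Irgm2, Parp10, Islr and Ifi47 share exonic sequence with a counted gene on the same strand, which leaves their counts uncertain too.

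Genes of related functions moved with the interferon-induced list. Slfn5, a Schlafen protein that acts on transcription of interferon targets, was at 21.3, 23.9 and 24.5 CPM with DMSO and at 62.8, 95.8 and 82.8 CPM with 3C. The groups were far apart, and the log2 fold change of Slfn5 was 1.79 ± 0.16 (edgeR adjusted p = 0.00055). The gene lies at chr11:82951349-82964840 on the plus strand (GRCm38), and it was called under every alternative. Slfn8, at lower levels of 0.378 to 1.34 CPM with DMSO and 2.92 to 4.61 CPM with 3C, was called higher as well, so that 2 of 4 Schlafen genes tested rose, against 1.23% of all genes, but the call of Slfn8 was lost in 3 of the 12 alternatives. Of 14 genes for MHC class I and antigen processing, 13 had a log2 fold change above 0 and 1 was called, against the same 1.23%, the immunoproteasome subunit Psmb8 with 1.24 ± 0.30. That call was lost in 6 of the 12 alternatives, which left 0 called in the list. Irgm2, another immunity-related GTPase, rose by 1.602 ± 0.15, and Parp10, a mono-ADP-ribosyltransferase that interferon induces, by 1.703 ± 0.18. Il15, a cytokine that sustains natural killer cells, rose from 3.66, 4.15 and 3.53 CPM to 9.27, 7.29 and 7.78 CPM.

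Chemokines moved the other way. Of 22 tested, 6 were called lower and 0 higher, against 0.632% of all genes called lower, 16 of the 22 had a log2 fold change below 0, and the median was -0.75. The groups were separate with 3C below DMSO in 12 of the 22, against 12.5% of all genes tested. Among the called chemokines, Ccl9, named after its values were seen, lost its call in 5, Cxcl14 in 3 and Cxcl2 in 2 of the 12 alternatives. Ppbp had the largest change of the called genes in the edgeR fit to all 6 libraries. Low-level genes such as Cntn2 and Cxcr6, named after their values were seen, reached larger changes under some alternatives. Ppbp was at 26.9, 20.4 and 26.0 CPM with DMSO and at 1.35, 1.09 and 1.17 CPM with 3C. The means were 24.5 ± 3.51 and 1.20 ± 0.131 CPM (SD, n = 3), a 20.3-fold difference that was far beyond the spread within either group, and the log2 fold change was -4.34 ± 0.20 (edgeR adjusted p = 3.88e-06). Ppbp encodes a precursor of neutrophil-attracting peptides that is best known from platelets.

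Ppbp lies among other chemokine genes on chromosome 5, and those of them that were tested fell to different extents. Along GRCm38 the order was Cxcl5 (chr5:90759360-90761624), Ppbp (chr5:90768518-90770063), Pf4 (chr5:90772435-90773383), Cxcl3 (chr5:90786103-90789600), Cxcl15 (chr5:90794534-90803067), Cxcl1 (chr5:90891241-90893115) and Cxcl2 (chr5:90903871-90905938), all on the plus strand. Cxcl3 was at 13.8, 7.50 and 12.2 CPM with DMSO and at 1.29, 0.866 and 1.36 CPM with 3C. Cxcl2, at low level, went from 1.85, 1.30 and 1.14 CPM to 0.225, 0.0911 and 0.130 CPM, which in the 3C libraries is 4, 2 and 2 counts. Cxcl5 was at 158, 123 and 148 CPM with DMSO and at 81.1, 62.8 and 78.0 CPM with 3C. Every one of the 3 was separated between the groups, but Cxcl5, the most abundant of them, changed by less than a fold of 2. The log2 fold changes were -3.26 ± 0.30 for Cxcl3, -3.25 ± 0.50 for Cxcl2, -0.95 ± 0.14 for Cxcl5 and -0.57 ± 0.14 for Cxcl1, with edgeR adjusted p of 0.00055, 0.0065, 0.00542 and 0.0454, so that the last pair passed on the adjusted p and not on the fold. Pf4 and Cxcl15 had at most 12 and 7 counts in any library and were not tested. Cxcl1, Cxcl2 and Cxcl5 were named after their values were seen.

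The promoters of 3 of these genes hold the same NF-kB letters, those in capitals here, which were sought on both strands. The letters were found in 29 of all 32851 promoters (0.0883%) and in 13 of the 10525 tested genes with a promoter (0.124%). The 3 genes were the only holders among the 16 chemokines tested that had a promoter in the table. The promoter of Ppbp did not hold the letters and Cxcl5 had no entry. The windows of 60 bases on the plus strand of GRCm38.p6 are chr5:90786003-90786062 for Cxcl3, chr5:90903777-90903836 for Cxcl2 and chr5:90891149-90891208 for Cxcl1, with the match in capitals 73, 97 and 71 bases before the gene start.
Cxcl3: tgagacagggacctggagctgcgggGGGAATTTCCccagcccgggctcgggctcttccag
Cxcl2: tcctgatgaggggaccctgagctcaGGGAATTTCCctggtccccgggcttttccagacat
Cxcl1: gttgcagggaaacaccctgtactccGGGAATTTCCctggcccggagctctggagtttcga
The 3 genes share the letters and differ in response, since Cxcl3 and Cxcl2 fell by more than 3 on the log2 scale and Cxcl1 did not reach a fold of 2. The AP-1 letters TGANTCA, sought because the series concerns that factor, were in 7.81% of all promoters and in 6.33% of the tested genes with one. They were in 15 of the 68 called lower genes (22.1%) and in 13 of the 105 called higher genes (12.4%). Of the 33 interferon-induced genes 9 held them (27.3%), and of the 85 called higher genes outside that list 7 did (8.24%).

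Chemokines for other cells also differed. Ccl11, which draws eosinophils, was at 38.2, 29.9 and 38.2 CPM with DMSO and at 9.44, 5.56 and 10.2 CPM with 3C, a log2 fold change of -2.09 ± 0.22 (edgeR adjusted p = 0.000832). Cxcl14, abundant in skin, fell from 203, 303 and 241 CPM to 90.5, 134 and 131 CPM, with a log2 fold change of -1.07 ± 0.18 (edgeR adjusted p = 0.0108). The groups of both were apart. The monocyte attractants Ccl2 and Ccl7, the most abundant chemokines at 474 to 945 CPM and 430 to 742 CPM with DMSO, were at 228 to 571 CPM and 206 to 404 CPM with 3C. They were not called, and the groups of Ccl2 overlapped. Cxcl12, which retains stem cells and leukocytes in their niches, was instead higher with 3C, at 143, 186 and 183 CPM with DMSO and 252, 389 and 300 CPM with 3C, and its change of 0.88 ± 0.17 passed on the adjusted p but not on the fold. Cxcl10, a chemokine that interferon induces, was at 1.46, 0.712 and 0.568 CPM and at 5.84, 1.64 and 1.62 CPM, and was not called (edgeR adjusted p = 0.114). Ccl2, Ccl7, Cxcl12, Cxcl10 and Cxcl14 were named after their values were seen.

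**Figure D3:**
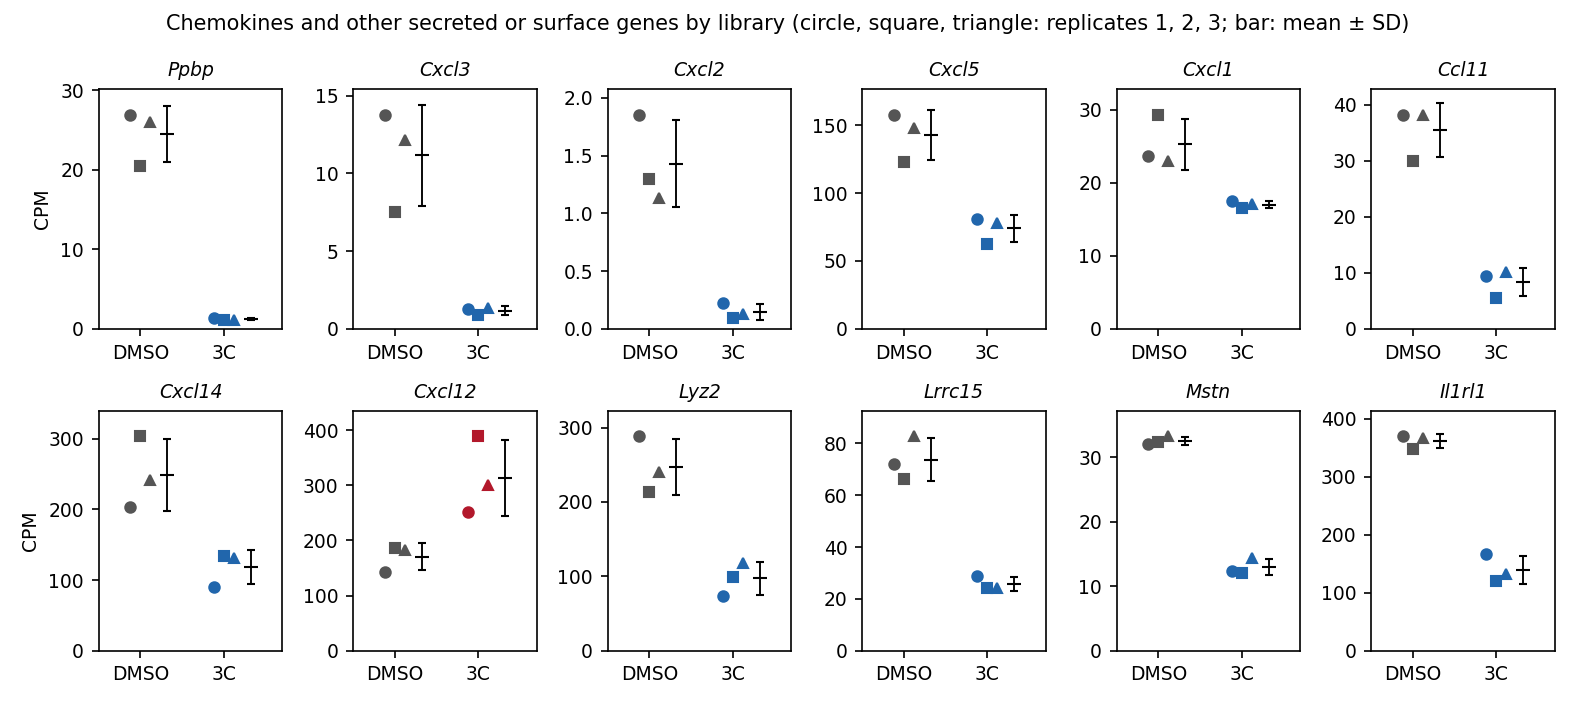
Level in CPM (vertical axes from 0) of 8 chemokines, Lyz2, Lrrc15, Mstn and Il1rl1 in each library, with circles, squares and triangles for replicates 1, 2 and 3 and bars for the mean ± SD of 3 libraries. All but Cxcl12 are lower in every 3C library than in any DMSO library, and Cxcl12, in red, is higher.

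Leukocyte markers were lower in level in the same libraries as the chemokines. Of 9 tested, 1 was called lower and 2 passed on the adjusted p alone with that one included, against 0.632% and 1.78% of all genes, while all 9 had a log2 fold change below 0 and the median was -0.66. Their sum went from between 281 and 370 CPM in the DMSO libraries to between 108 and 173 CPM in the 3C libraries. Most of that sum was Lyz2, lysozyme of macrophages and neutrophils, at 288, 213 and 241 CPM with DMSO and 73.7, 99.6 and 118 CPM with 3C, with a log2 fold change of -1.35 ± 0.18 (edgeR adjusted p = 0.0027). Csf1r, the receptor that macrophages need to survive, was at 18.3, 17.1 and 21.2 CPM against 8.88, 8.52 and 12.1 CPM, and changed by -0.94 ± 0.17. Ptprc, the pan-leukocyte antigen CD45, was at 0.757 to 1.24 CPM with DMSO and 0.194 to 0.449 CPM with 3C, while Cd3e of T cells had 1 count over the 6 libraries. Called genes of the myeloid and mast cell lineages included Ctss, a lysosomal protease of antigen-presenting cells (-1.91 ± 0.24), and Mcpt8, a protease of basophils and mast cells, which was at 24.5, 15.4 and 18.6 CPM with DMSO and at 2.92, 1.82 and 5.64 CPM with 3C. Csf1r, Ptprc and Cd3e are list markers named after their values were seen. Cd53, Clec4n and Cxcr6, likewise named after their values were seen, fell by 1.31, 3.38 and 4.08 on the log2 scale. Fewer cells of a type and less RNA per cell cannot be told apart in bulk libraries, and the part of the leukocyte markers in the chemokine result was not tested.

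Other inflammatory genes were lower as well. Il1rl1, the receptor for IL-33, was at 370, 348 and 366 CPM with DMSO and at 167, 120 and 132 CPM with 3C. Ptgs2, the inducible enzyme of prostaglandin synthesis, was at 192, 111 and 115 CPM with DMSO and at 64.7, 23.2 and 46.8 CPM with 3C. Saa3, an acute-phase protein, was at 5.38, 4.02 and 4.41 CPM with DMSO and at 1.07, 2.14 and 1.68 CPM with 3C. None of the 3 overlapped between groups, and Ptgs2 was highest in DMSO replicate 1. The log2 fold changes were -1.37 ± 0.14 for Il1rl1, -1.64 ± 0.32 for Ptgs2 and -1.48 ± 0.29 for Saa3. Ptgs2 and Saa3 were the only called members of the NF-kB pathway and response list, of which 24 were tested, against 0.632% of all genes called lower, and 12 of the 24 lay on each side of 0. Of the cytokines and their receptors, 24 tested, Il1rl1 was called lower and Il15 higher, against 0.632% and 1.23% of all genes. Saa3 and Il15 lost their calls in 3 and Ptgs2 in 2 of the 12 alternatives. In the AP-1 family Atf3 alone of 13 was called, lower, by -1.64 ± 0.33, against 0.632% of all genes, and its call was lost in 4 of the 12 alternatives. In the same family Jun, Junb, Fos and Jund, named after their values were seen, had overlapping groups and log2 fold changes of -0.31, -0.29, 0.14 and -0.02.

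Extracellular matrix genes changed in both directions, while the abundant fibrillar chains were not called. Sparcl1, a secreted relative of osteonectin, was at 1.46, 1.76 and 1.39 CPM with DMSO and at 10.7, 10.7 and 8.36 CPM with 3C. The means of Sparcl1 were 1.53 ± 0.198 and 9.90 ± 1.33 CPM (SD, n = 3), and the log2 fold change of 2.68 ± 0.22 (edgeR adjusted p = 0.000464) was called under every alternative. Eln, the elastin precursor, was at 11.2, 24.5 and 21.5 CPM with DMSO and at 56.0, 99.0 and 55.9 CPM with 3C. Tnxb, tenascin-X, was at 107, 137 and 116 CPM with DMSO and at 274, 323 and 211 CPM with 3C. Both were apart between groups, with log2 fold changes of 1.89 ± 0.29 and 1.17 ± 0.17. Of 31 matrix glycoproteins and elastic fibre genes 4 were called higher and 0 lower, of 37 collagen chains 2 were higher, Col23a1 (1.87 ± 0.24) and Col5a3 (1.04 ± 0.18), and of 24 proteoglycans 2 were higher, Ogn and Podn. Over all genes 1.23% were called higher. Leaving out 1 library gave 1 to 4 collagen chains and 1 to 3 proteoglycans called higher, with 0 to 4 proteoglycans lower. Col5a3 and Has1 lost their calls in 3 of the 12 alternatives, and Podn lost its call in 4, DESeq2 among them. Col1a1, at 4892 to 7114 CPM with DMSO and 4235 to 6551 CPM with 3C, had overlapping groups and a log2 fold change of -0.21 ± 0.21. The lower matrix genes were Has1, a hyaluronan synthase (-1.79 ± 0.38), and 4 of 28 matrix proteases and inhibitors, against 0.632% of all genes, a count that was 2 to 4 when 1 library was left out.

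The lower proteases and inhibitors included Plaur, Mmp13 and Timp1. Plaur, the urokinase receptor, was at 25.3, 24.8 and 24.1 CPM with DMSO and at 12.4, 12.2 and 12.4 CPM with 3C. The Plaur libraries were almost the same within each group, yet its fold sat at the threshold, with a log2 fold change of -1.004 ± 0.12, and its call was lost in 4 of the 12 alternatives. Timp1, a metalloprotease inhibitor named after its values were seen, changed by -1.02 ± 0.20. Timp1 lost its call in 4 of the 12 alternatives and Mmp13 in 5. The collagenase Mmp13 was at 1.01 to 1.30 CPM with DMSO and 0.130 to 0.273 CPM with 3C.

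Contractile genes lay below their DMSO level in most cases. Lrrc15, a membrane protein of TGF-beta-activated fibroblasts, was at 72.2, 66.4 and 82.7 CPM with DMSO and at 28.9, 24.2 and 24.3 CPM with 3C. The groups of Lrrc15 were far apart, with means of 73.8 ± 8.25 and 25.8 ± 2.71 CPM (SD, n = 3) and a log2 fold change of -1.51 ± 0.13 (edgeR adjusted p = 0.00055). The gene lies at chr16:30269302-30283256 on the minus strand (GRCm38). It was the only called gene of the 16 contractile and myofibroblast genes, against 0.632% of all genes called lower, and 3 more passed on the adjusted p alone, Actg2, Acta2 and Cnn1. Acta2, the smooth muscle actin that defines myofibroblasts, was at 1806, 1732 and 2054 CPM with DMSO and at 995, 1172 and 1362 CPM with 3C, with a log2 fold change of -0.66 ± 0.16 (edgeR adjusted p = 0.0419). In 12 of the 16 every 3C library was below every DMSO library, against 12.5% of all genes tested, and the list's median was -0.36. Acta2, Actg2 and Cnn1 were named after their values were seen.

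Complement genes rose in part. Clu, clusterin, a secreted chaperone that restrains the terminal complement complex, was at 6.04, 6.33 and 7.0 CPM with DMSO and at 22.2, 35.4 and 38.9 CPM with 3C, with a log2 fold change of 2.32 ± 0.21 (edgeR adjusted p = 0.00055). C1s1, a protease of the first component, was at 57.8, 67.4 and 59.6 CPM with DMSO and at 146, 158 and 140 CPM with 3C. C4b was at 10.7, 14.03 and 11.9 CPM with DMSO and at 30.7, 37.4 and 29.2 CPM with 3C. These 3 were separated between groups, and all were called in every alternative. With C2, whose call was lost in 5 of the 12 alternatives, they made 4 of 17 complement genes called higher, against 1.23% of all genes, and C3, the central component, named with C2 after its values were seen, was called lower, at 7.46, 10.3 and 12.5 CPM against 4.49, 4.37 and 3.82 CPM.

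Growth factor pathways had single members called in either direction. Bmp4, a ligand of the BMP pathway, was at 3.31, 4.82 and 4.10 CPM with DMSO and at 12.5, 14.9 and 14.7 CPM with 3C. The groups of Bmp4 were apart, with a log2 fold change of 1.78 ± 0.19, and the receptor Bmpr1b was lower, with a log2 fold change of -1.15 ± 0.21. In the IGF axis Igfbp3, which binds circulating IGF, changed by 1.604 ± 0.29 and the imprinted RNA H19 by 1.05 ± 0.20. Mstn, myostatin, a TGF-beta family inhibitor of muscle growth, was at 31.99, 32.4 and 33.2 CPM with DMSO and at 12.4, 12.1 and 14.5 CPM with 3C. The retinoic acid binding proteins Crabp1 and Crabp2 were the called members of 13 retinoid genes, against 0.632% of all genes called lower, lower by -1.33 ± 0.15 and -1.52 ± 0.25. Crabp1 was at 382, 309 and 269 CPM with DMSO and at 119, 121 and 142 CPM with 3C. Of the lipid genes, G0s2, an inhibitor of fat breakdown, rose by 1.72 ± 0.19 and lipoprotein lipase, Lpl, by 1.28 ± 0.26. Lpl and H19 lost their calls in 4 and Igfbp3 and Bmpr1b in 2 of the 12 alternatives.

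Several of the clearest differences lay outside these lists. Tril, an accessory protein of Toll-like receptors, was at 1.46, 1.47 and 2.84 CPM with DMSO and at 14.2, 10.2 and 12.1 CPM with 3C. Susd2, a membrane protein of stromal cells, was at 10.5, 9.93 and 11.3 CPM with DMSO and at 36.1, 27.1 and 34.3 CPM with 3C. Islr, a marker of undifferentiated mesenchymal cells also called meflin, was at 38.1, 37.3 and 40.7 CPM with DMSO and at 83.2, 117 and 111 CPM with 3C. The 3 were apart between groups, with log2 fold changes of 2.69 ± 0.27, 1.62 ± 0.15 and 1.43 ± 0.14. Nrep rose by 1.65 ± 0.17 and Fmo1, a flavin monooxygenase, by 1.99 ± 0.23. On the lower side, Hsd3b6, a steroid dehydrogenase, was at 18.3, 17.3 and 18.5 CPM with DMSO and at 3.09, 3.92 and 4.67 CPM with 3C, a log2 fold change of -2.22 ± 0.18 (edgeR adjusted p = 0.000464). The actin-binding Aif1l (-1.29 ± 0.11), the branched-chain aminotransferase Bcat1 (-1.18 ± 0.12), the lipid hydrolase Pla2g7 (-1.42 ± 0.14) and the sodium pump regulator Fxyd5 (-1.21 ± 0.13) fell too, and each was called in every alternative.

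Genes of the cell cycle lay lower by small amounts. All 45 DNA replication genes tested had a log2 fold change below 0, from -0.94 to -0.07 with a median of -0.38, and 43 of 45 mitosis genes did, with a median of -0.51. None of the 90 was called, because their folds stayed under 2, but 5 replication and 12 mitosis genes passed on the adjusted p alone, against 1.78% of all genes lower on it. Tpx2, a spindle assembly factor, was at 38.8, 36.4 and 33.1 CPM with DMSO and at 21.3, 23.9 and 22.7 CPM with 3C. Rrm2, which makes deoxynucleotides, was at 66.3, 76.5 and 61.8 CPM with DMSO and at 42.4, 44.2 and 35.9 CPM with 3C. The groups of both were apart, and the log2 fold changes were -0.67 ± 0.12 (edgeR adjusted p = 0.014) and -0.74 ± 0.13 (edgeR adjusted p = 0.0109). Every 3C library lay below every DMSO library for 28 of the replication and 30 of the mitosis genes, against 12.5% of all genes tested. Among the cell-cycle inhibitors, Cdkn1c rose by 1.08 ± 0.22 but lost its call in 4 of the 12 alternatives, while Cdkn1a, at 824 to 1084 CPM over the 6 libraries, and Cdkn2a, at 436 to 601 CPM, had overlapping groups. Rrm2 and Cdkn2a were named after their values were seen.

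Other lists held small differences or none. All 44 respiratory chain subunits tested had a log2 fold change below 0, with a median of -0.15, and 0 were called and 0 passed on the adjusted p. The integrated stress response list had a median of -0.26, with 4 of 29 members lower on the adjusted p alone, against 1.78% of all genes. The ER chaperones and the heat shock genes each had a median of -0.18, with 0 called. The 42 histone and DNA modifying enzymes had a median of 0.23 with 0 called, and the clock genes one of 0.27, where 3 of 18 were higher and 1 lower on the adjusted p alone, against 2.43% and 1.78% of all genes. The interquartile range of all tested genes ran from -0.18 to 0.22.

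**Figure D4:**
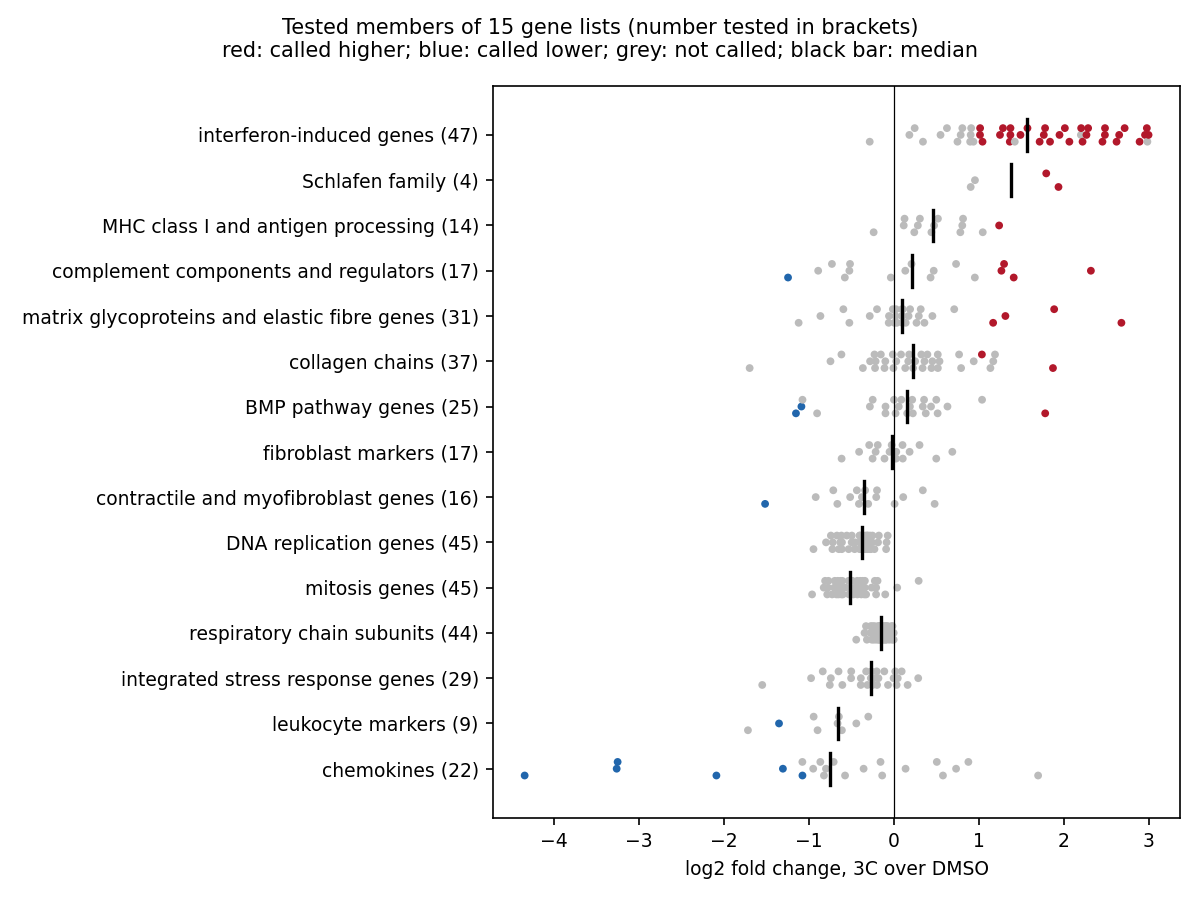
Log2 fold change of 3C over DMSO (horizontal axis) for the tested members of 15 gene lists, 1 point per gene, with the number tested in brackets, red for called higher, blue for called lower, grey for not called and a black bar at the median. The interferon list has its median at 1.57, the chemokines at -0.75, and all replication and all but 2 mitosis points sit left of 0 without a call.

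The effect of 3C was then set beside that in old C57BL/6 mice (20 to 21 months), with 4 DMSO and 4 3C libraries of kidney and as many of liver. Fitted alone, 0 genes were called in kidney and 0 in liver. The difference between the fibroblast effect and the tissue effect was tested as an interaction in edgeR over 14 libraries each. Against kidney, 421 genes (2.66% of 15848) had a higher and 194 (1.22%) a lower fibroblast effect. Against liver, the counts were 60 (0.400% of 14983) and 9 (0.0601%). The liver total of 69 was 27 without DMSO replicate 3, 32 without DMSO replicate 1, 39 without DMSO replicate 2, 35 without 3C replicate 3, 13 without DMSO replicate 1 and 3C replicate 3 together, and 228 with DESeq2. The kidney total of 615 was 402 without DMSO replicate 3, 364 without 3C replicate 2 and 1101 with DESeq2. Both tests use the same 6 fibroblast libraries, and isolated fibroblasts and whole organs of old mice differ in more than the cell type, and these differences cannot be told apart.

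The interferon-induced genes differed between the fibroblasts and both organs. Of 51 members in the fits, 36 had a higher fibroblast effect than kidney, against 2.66% of all genes, and 17 than liver, against 0.400%. A lower fibroblast effect was called for 0 members in either, against 1.22% of all genes for kidney and 0.0601% for liver. For the 47 tested in fibroblasts the median log2 fold change was 1.57 there, -0.31 in kidney and -0.15 in liver, and the number above 0 was 46, 0 and 15. Oasl2, with a log2 fold change of 3.00 in fibroblasts, had -0.43 in kidney and -0.20 in liver, and the differences were 3.41 ± 0.49 (edgeR adjusted p = 0.00111) and 3.18 ± 0.60 (edgeR adjusted p = 0.0223). For Iigp1 the difference from liver was 3.07 ± 0.37 (edgeR adjusted p = 0.0014). Slfn5 differed by 1.91 ± 0.20 from kidney and 1.85 ± 0.29 from liver. The leukocyte markers, lower in the fibroblasts, had medians below 0 in the organs as well, -0.61 in kidney and -0.40 in liver, with 0 called there. The chemokine medians were -0.39 in kidney and -0.06 in liver, also with 0 called.

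Sparcl1, with a log2 fold change of 2.68 in fibroblasts, had -0.27 in kidney and -0.12 in liver, and differed by 2.93 ± 0.24 from kidney (edgeR adjusted p = 1.09e-05) and by 2.79 ± 0.35 from liver (edgeR adjusted p = 0.00181). Clu and Islr differed from kidney by 2.38 ± 0.20 and 2.13 ± 0.18, and Fmo1 from liver by 2.004 ± 0.21. In the other direction Ppbp differed by -3.85 ± 0.64 from kidney and -3.69 ± 0.41 from liver, where its counts were few. Eva1a, a protein of the endoplasmic reticulum and lysosome, differed by -1.45 ± 0.17 from kidney and -1.29 ± 0.23 from liver. Aif1l and Pla2g7 differed from kidney by -1.29 ± 0.12 and -1.09 ± 0.16. Alb, albumin, differed from liver by -3.09 ± 0.62, and in the fibroblasts it was at 50 to 56 counts per library with DMSO and at 1 to 9 with 3C, which is a trace level.

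**Figure D5:**
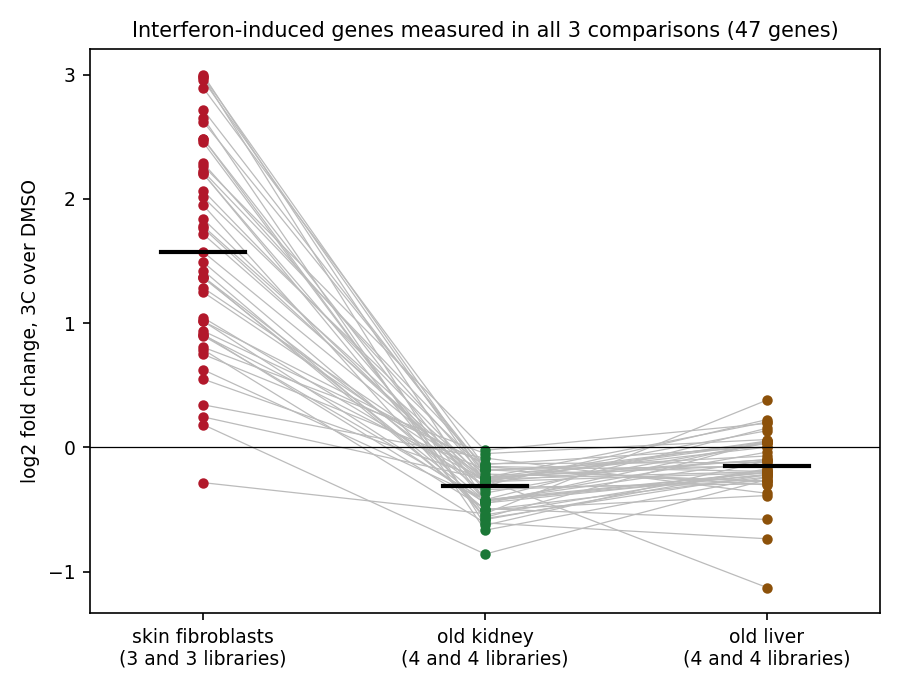
Log2 fold change of 3C over DMSO (vertical axis) of 47 interferon-induced genes in skin fibroblasts, kidney and liver, with 1 point per gene, grey lines joining the same gene and black bars at the medians. The fibroblast points reach 3.00 with a median of 1.57, while the medians in kidney and liver are -0.31 and -0.15.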

How the data were processed

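RNA-seq libraries of 3 DMSO and 3 3C fibroblast samples were compared, and groups came from the sample labels. The submitters' processing notes name Trimmomatic 0.39, HISAT2 2.2.1, HTSeq 0.12.4 and mm10. The study's methods for kidney and liver give their roles as trimming, alignment and counting without strand, and the same was assumed for the fibroblasts. The deposited values are counts, whole reads per gene for 24984 genes. Reads outside genes, 5.85 to 7.55% of each library, were left out. Genes were filtered with filterByExpr (minimum count 10), scaled by TMM and tested two-sided with the quasi-likelihood F test of edgeR 4.0.16 (R 4.3.3), with Benjamini-Hochberg adjustment over all tested genes. Differences from kidney and liver were interaction terms in joint fits. The steps were tested on simulated counts. Promoter sequences came from RefSeq on GRCm38.p6, and gene positions from GENCODE vM21, on the same build as mm10.

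Named genes were the 12 higher and 12 lower called genes of smallest p with separate groups, the 6 higher and 6 lower of largest change at 5 CPM or more, up to 3 called members of each list by p or the 2 most abundant where none was called, the genes Sparcl1, Slfn5, Clu, Ppbp and Lrrc15, and 3 per direction for each interaction, leaving out predicted genes. Any other gene named was chosen after its values were seen. The members and lists were chosen with earlier results of these data known. Fits were repeated with DESeq2 1.42.0, with RLE scaling, unfiltered, at a mean of at least 1 CPM, with calls by adjusted p only, with the replicate number as a block, and without each library in turn. Leaving out DMSO replicate 1 and 3C replicate 3 together was chosen after seeing the data. Results for some called genes are not reported here.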

Additional observations from a re-analysis of the deposited data

Results flagged for a closer look

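The effect of 3C differed between the fibroblasts and the other tissues by a test of the difference itself, in 615 genes for kidney and in 69 for liver. The named genes are those of smallest p among the genes called in fibroblasts. Against kidney, the difference in log2 fold change was 2.93 for Sparcl1, 2.13 for Islr and 2.38 for Clu, and -1.29 for Aif1l, -1.45 for Eva1a and -1.09 for Pla2g7. Against liver, it was 2.004 for Fmo1, 3.07 for Iigp1 and 2.79 for Sparcl1, and -3.69 for Ppbp, -1.29 for Eva1a and -3.09 for Alb. In kidney Sparcl1, Islr and Clu had log2 fold changes of -0.27, -0.72 and -0.07. In liver Fmo1 and Iigp1 had -0.03 and -0.11, and Alb, at 11335265 counts over the 8 liver libraries, had -0.03.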

How the results depend on the processing

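With 3C, 166 genes were higher and 85 lower. DESeq2, RLE scaling, no filter, a mean of at least 1 CPM and the replicate block kept both counts within 1.5 times (159 to 210 higher, 74 to 127 lower). On the adjusted p alone, the counts were 327 and 240. Leaving out 1 library gave 78 to 162 higher and 40 to 92 lower genes, with the lowest counts without DMSO replicate 3. Without DMSO replicate 1 and 3C replicate 3 together, 110 genes were higher and 57 lower. Genes whose effect differed from kidney numbered 615, 1101 with DESeq2 and 364 to 817 without 1 library. Those that differed from liver numbered 69, 228 with DESeq2, 27 to 85 without 1 library and 13 without the pair. The causes were not tested.

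With the replicate number as a block, 169 genes were higher and 87 lower, and 414 and 80 differed from kidney and liver. Same-numbered libraries deviated together with correlations of -0.12, 0.33 and -0.06, and DMSO replicate 1 was nearest to 3C replicate 3 (0.37), so the shared numbers were not taken as a pairing.

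Genes that were not called and changed sign when 1 library was left out had log2 fold changes from -0.16 to 0.036 for Ccn1, -0.24 to 0.038 for Col1a2, -0.20 to 0.039 for E2f1, -0.18 to 0.076 for Fth1, -0.30 to 0.073 for Ftl1, -0.058 to 0.097 for Klf4, -0.45 to 0.029 for Krt10, -0.28 to 0.32 for Nr4a1, -0.12 to 0.23 for Nupr1 and -0.14 to 0.017 for Pmel. Without the pair of libraries, Ccn1 was at 0.038, E2f1 at 0.012 and Klf4 at -0.016. Many of the 116 named genes were not called in the edgeR fit to all 6 libraries and had no call to lose. Among those that were called, 28 lost their call without DMSO replicate 3, 17 without 3C replicate 2 and 20 without the pair. With 3 libraries a group, genes near a fold of 2 or at under about 1 CPM are the least certain.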
